A study of Mus musculus with 6 samples.

Results

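Microtubules are polymers of alpha- and beta-tubulin that carry transport and hold the shape of neurites. Neurons make their own beta-tubulin, class III (Tubb3), and proteins that bind and stabilize the polymer: Map2, typical of dendrites, Mapt (tau), typical of axons, Map1b, prominent in growing axons, and the doublecortin proteins Dcx and Dclk1 of migrating neurons. The stathmins act the other way, since they bind free tubulin and favour disassembly. Stmn1 is made in dividing cells as well as in neurons, whereas Stmn2, Stmn3 and Stmn4 are neuronal and membrane-anchored. These 10 genes were chosen by name from the genes measured by the array, each through a probe annotated with its symbol alone, and all 10 of 10 were found among 19938 genes with such a probe. Where a gene had several probes, the one with the highest mean over the arrays stood for it.

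The RNA came from N2A cells, a mouse neuroblastoma line, that had been transiently transfected with shRNA plasmids. There were 3 Affymetrix Mouse Gene 1.0 ST arrays of cells given the shRNA against Pbcas4, a pseudogene of human BCAS4, and 3 arrays of cells given a scramble control shRNA. Both were transcribed from a U6 promoter in a lentiviral plasmid, how many hairpin sequences the arrays cover is not given in the sources used here, and cells were harvested 72 h after transfection. The study's methods mention no selection of the transfected cells, and Pbcas4 itself, which no probe annotation names, was not analysed here. The study reports a reproducible but partial decrease of Pbcas4 with the shRNA in N2A cells, assayed by quantitative PCR. The values are normalized log2 expression as the authors deposited them, so a difference of 1 is a factor of 2 on the linear scale. Scramble replicate 1 stood apart from its group: across all probes it correlated at 0.990 to 0.993 with the shRNA arrays and at 0.987 to 0.988 with the other scramble arrays. Replicate 1 of the shRNA group correlated at 0.992 with scramble replicate 1, between its values with shRNA replicate 2 (0.989) and shRNA replicate 3 (0.993). Results are therefore also given without either of these arrays where its absence matters.

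Of the 10 genes, 9 averaged lower with the Pbcas4 shRNA than with the scramble construct, and 1, Stmn1, averaged higher. Over all genes, 49.0% averaged lower. The median log2 difference over the 10 genes, shRNA minus scramble, was -0.22, against 0.0031 over all 19938 genes. In limma's moderated test, adjusted over all probes by the Benjamini-Hochberg method, 0 of the 10 genes met the criterion used here. It asks for an adjusted p below 0.05 together with a difference above 0.5 on the log2 scale. The same criterion was met by 0% of all genes. The study's methods set the threshold of 0.5 on a variance between conditions, read here as a log2 difference. The study reports differentially expressed genes, which the fit used here did not return. The lowest adjusted p of all 19938 genes was 0.297 from limma, so none passed whatever the size threshold. A filter on variance before the adjustment was not run. At an unadjusted p under 0.05, 2 of the 10 genes were lower, Stmn2 and Dclk1, against 5.46% of all genes, and 0 were higher, against 6.22% of all genes. For 3 genes, Stmn2, Stmn3 and Dclk1, all shRNA arrays lay below all scramble arrays, which held for 7.63% of all genes. The opposite order was found for 0 of the 10 genes and for 9.13% of all genes. In RNA from whole cultures, fewer cells expressing a gene and less of its RNA per cell cannot be told apart.

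**Figure D1:**
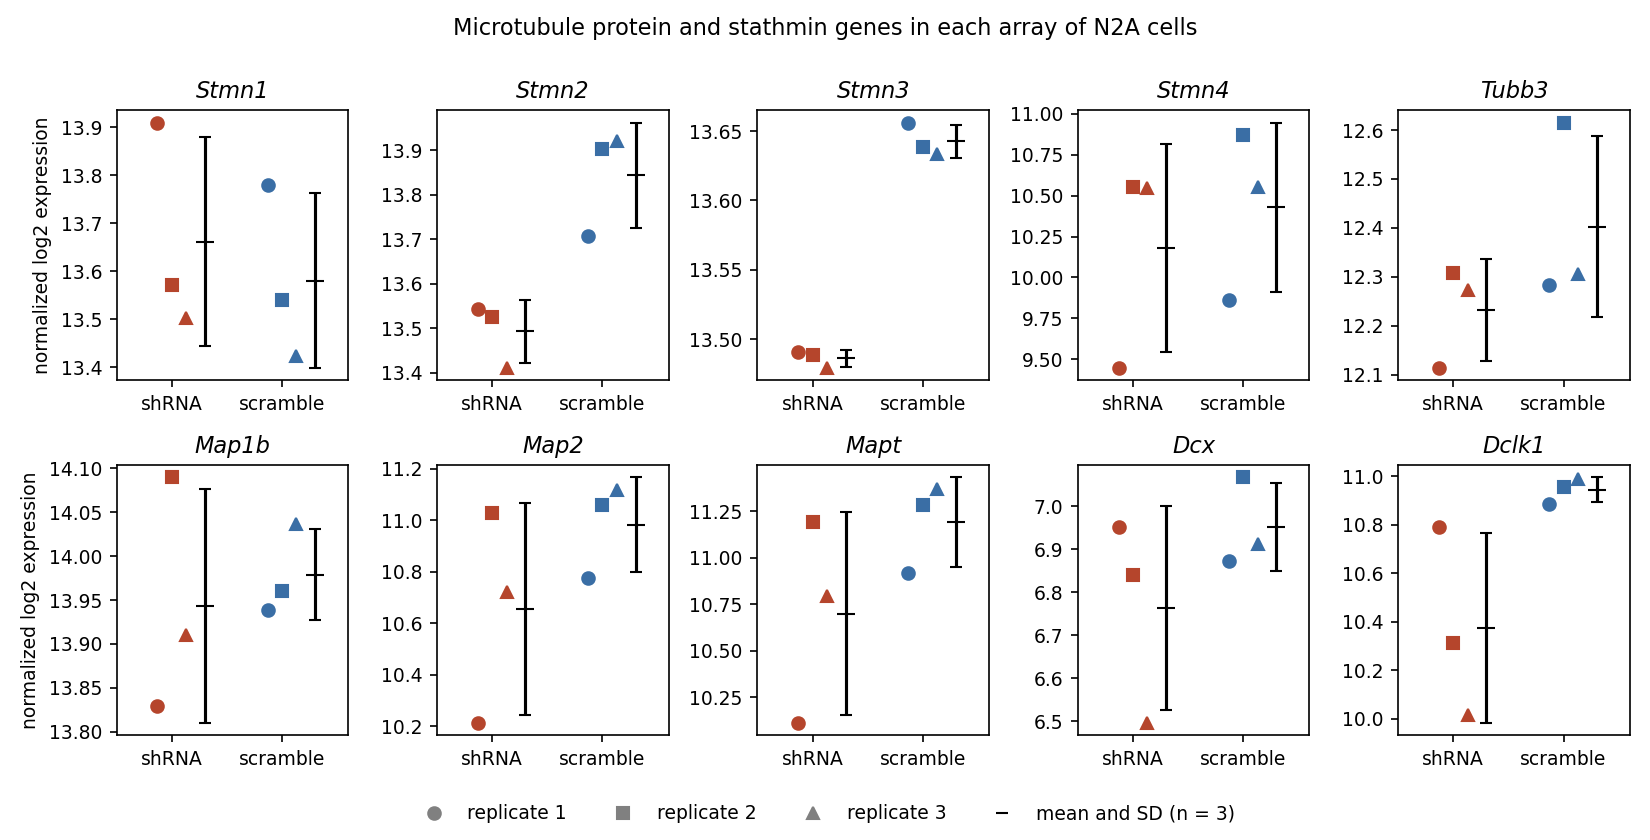
Normalized log2 expression of the 10 genes in each array of N2A cells, with shRNA arrays on the left and scramble arrays on the right of each panel. Symbols mark the replicate number, bars are the mean and SD of 3 arrays, and each panel has its own axis. The groups part fully for Stmn2, Stmn3 and Dclk1 and overlap for the other 7 genes.

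Among the stathmins, Stmn2 and Stmn3 had groups further apart, at their nearest arrays, than the SD within either. Stmn2, also known as SCG10, a stathmin of growth cones, was at 13.54, 13.53 and 13.41 in the shRNA arrays and at 13.71, 13.90 and 13.92 in the scramble arrays (replicates 1, 2 and 3 of each group, an order kept for all genes). Every shRNA array was below every scramble array, and scramble replicate 1 was the closest of its group to the shRNA arrays. The log2 difference was -0.35 (standard error 0.096, 95% interval -0.58 to -0.12), a factor of 0.784. Limma gave an unadjusted p of 0.0091 and an adjusted p of 0.394 for Stmn2. With any 1 of the 6 arrays left out, its unadjusted p lay between 0.0044 and 0.0415.

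Stmn3, or SCLIP, a neuronal stathmin related to Stmn2, was at 13.49, 13.49 and 13.48 in the shRNA arrays and at 13.66, 13.64 and 13.63 in the scramble arrays. It had the tightest groups of the 10 genes, with an SD of 0.0061 for the shRNA and of 0.012 for the scramble construct, and an empty interval of 0.14 between them. The difference was small at -0.16 on the log2 scale (standard error 0.074, 95% interval -0.33 to 0.021), and limma, which draws each gene's variance towards that of all probes, gave an unadjusted p of 0.0748. When that variance was allowed to follow the expression level and to resist outlying genes, the unadjusted p was 0.0078 and the adjusted p was 0.380. A further Stmn3 probe read 5.85 to 6.04 in the shRNA arrays and 5.77 to 6.06 in the scramble arrays. That probe lay below the median probe of every array, its groups overlapped, and with both probes averaged the difference of Stmn3 was -0.053 and the groups overlapped as well.

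Stmn1, or oncoprotein 18, which releases tubulin during the cell cycle, was the only one of the 10 genes with a higher average. It was at 13.91, 13.57 and 13.50 in the shRNA arrays and at 13.78, 13.54 and 13.42 in the scramble arrays. Both groups had the same order, highest in replicate 1 and lowest in replicate 3, and they overlapped. The log2 difference was 0.081 (standard error 0.15, 95% interval -0.27 to 0.43, unadjusted p = 0.602 from limma). Both Stmn1 probes gave nearly the same values, with at most 0.021 between them in any array, and whether they share probe sequence was not tested. Stmn4, or RB3, of differentiated neurons, was at 9.45, 10.55 and 10.54 in the shRNA arrays and at 9.86, 10.87 and 10.55 in the scramble arrays. Replicate 1 was far below the other arrays in both groups, and the log2 difference of -0.25 (standard error 0.38, 95% interval -1.15 to 0.65) was smaller than the SD of either group, 0.64 for the shRNA and 0.52 for the scramble construct. Without shRNA replicate 1 the difference of Stmn4 was 0.12, and that of Stmn1 was -0.044.

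Because Stmn1 is also a gene of cycling cells, genes of cell division were set beside it. Of 22 listed mitotic spindle proteins 21 were measured, and all 21 averaged higher with the shRNA, 11 of them at an unadjusted p under 0.05. Of all 19938 genes, 10171 averaged higher, and 6.22% were higher at that p. The median log2 difference was 0.71, and 0 passed after adjustment (lowest adjusted p = 0.410 from limma). The mitotic kinase Plk1 differed by 0.77 and the kinesins Kif18a and Kif22 by 0.70 each. Averaged over the list, the log2 level was 11.44, 11.25 and 11.18 with the shRNA, against 11.26, 10.53 and 10.17 with the scramble construct. Scramble replicate 1 thus fell within the range of the shRNA group. The difference of Stmn1 was below the lowest of these 21 genes (0.12), and the part of cell division in its values was not tested.

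Tubb3, the neuronal beta-tubulin, was at 12.11, 12.31 and 12.27 in the shRNA arrays and at 12.28, 12.62 and 12.31 in the scramble arrays. The groups overlapped, since shRNA replicate 2 lay just above scramble replicates 1 and 3. The log2 difference was -0.17 (standard error 0.12, 95% interval -0.46 to 0.12, unadjusted p = 0.203 from limma). Without scramble replicate 2, the highest array, it was -0.064.

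The structural microtubule-associated proteins split into a pair with wide ranges and one, Map1b, with a narrow range (0.26 over the 6 arrays). Map1b was also the brighter, between percentiles 98.8 and 99.4 of the probes of its arrays. Mapt was at 10.11, 11.19 and 10.80 in the shRNA arrays and at 10.92, 11.29 and 11.37 in the scramble arrays. Map2 was at 10.21, 11.03 and 10.72 in the shRNA arrays and at 10.77, 11.06 and 11.12 in the scramble arrays. In both genes shRNA replicate 1 was the lowest array, shRNA replicate 2 lay among the scramble arrays, and each shRNA array was below the scramble array of the same number. The log2 difference was -0.49 for Mapt (standard error 0.28, 95% interval -1.16 to 0.17) and -0.33 for Map2 (standard error 0.22, 95% interval -0.85 to 0.19), with unadjusted p of 0.122 for Mapt and 0.173 for Map2 from limma.

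Map2 and Mapt depended on single arrays. Without shRNA replicate 1 the difference was -0.20 for Mapt and -0.11 for Map2, and without shRNA replicate 2 it was -0.74 for Mapt and -0.52 for Map2. With the replicate number as a block, Mapt had an unadjusted p of 0.0253 (95% interval -0.90 to -0.090, adjusted p = 0.322 from limma). Map1b, the other member of this group, was at 13.83, 14.09 and 13.91 in the shRNA arrays and at 13.94, 13.96 and 14.04 in the scramble arrays. Of Map1b, the shRNA arrays lay on both sides of the scramble arrays, and its log2 difference was -0.036 (standard error 0.098, 95% interval -0.27 to 0.20).

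Of the doublecortin genes, Dclk1, a doublecortin-like protein with a kinase domain in its long form, had the largest difference of the 10 genes. It was at 10.79, 10.31 and 10.02 in the shRNA arrays and at 10.89, 10.96 and 10.99 in the scramble arrays. The scramble arrays lay close together (SD 0.051), while the shRNA arrays were spread (SD 0.39), and shRNA replicate 1 lay only 0.096 below the lowest scramble array. The log2 difference was -0.57 (standard error 0.19, 95% interval -1.03 to -0.11), a factor of 0.674, with an unadjusted p of 0.0223 and an adjusted p of 0.431 from limma. With 1 array left out, its unadjusted p was under 0.05 in 2 of 6 cases, and it was lost without shRNA replicate 2 or 3 and without scramble replicate 2 or 3, where it reached 0.0638. Over all 6 cases the difference lay between -0.78 and -0.39. For each of Stmn2, Stmn3 and Dclk1, p was 0.1 in an exact permutation test (two-sided), the smallest that 3 arrays against 3 allow. Groups that do not overlap always give this value, so the test adds nothing to the separation of the arrays.

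Dcx, doublecortin itself, was at 6.95, 6.84 and 6.50 in the shRNA arrays and at 6.87, 7.07 and 6.91 in the scramble arrays. Each of these values lay below the median probe of its array, which was between 7.75 and 7.86. The groups overlapped through shRNA replicate 1, and the log2 difference was -0.19 (standard error 0.14, 95% interval -0.52 to 0.14, unadjusted p = 0.217 from limma). Without shRNA replicate 3 it was -0.055.

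**Figure D2:**
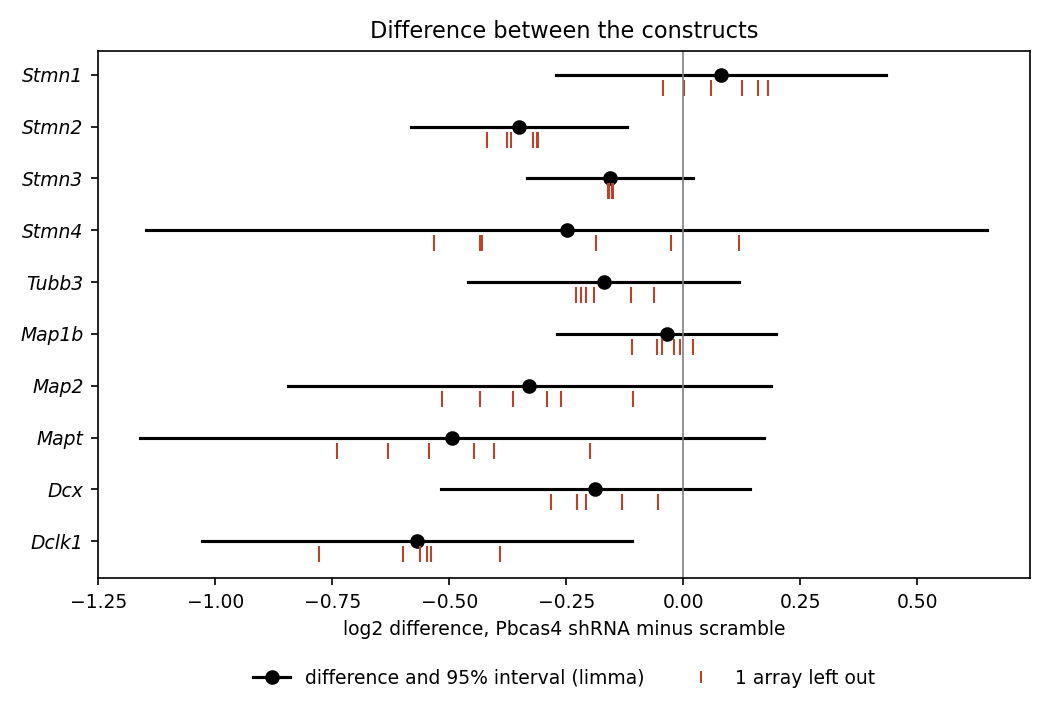
Log2 difference of each of the 10 genes, Pbcas4 shRNA minus scramble, with its 95% interval from limma (black), and the difference with each array left out in turn (red ticks). The intervals of Stmn2 (-0.58 to -0.12) and Dclk1 (-1.03 to -0.11) lie below 0 before adjustment for the number of genes tested, and the ticks of Stmn1, Stmn4 and Map1b fall on both sides of 0.

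The sequences just before the annotated starts of Dclk1 and Stmn3 are shown because the shRNA arrays of both genes lay below all scramble arrays and their windows were in the promoter table. RefSeq promoter windows (GRCm38.p6) were found for 6 of the 10 genes, in 8 windows, and Stmn1, Stmn2, Stmn4 and Mapt had none in the table. Each sequence is the 250 bases before a start, on the strand of the gene, and capitals mark matches to the E-box letters CANNTG, which read the same on both strands. Dclk1 has 2 annotated starts, with windows chr3:55242114-55242363 (+) and chr3:55461478-55461727 (+), and the Stmn3 window is chr2:181314501-181314750 (-). Which start N2A cells use was not measured.
Dclk1, first start: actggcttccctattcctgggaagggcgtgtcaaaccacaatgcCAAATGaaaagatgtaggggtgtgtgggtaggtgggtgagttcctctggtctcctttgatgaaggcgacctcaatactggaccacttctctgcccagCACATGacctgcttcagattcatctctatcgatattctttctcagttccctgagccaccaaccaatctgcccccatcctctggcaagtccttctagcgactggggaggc
Dclk1, second start: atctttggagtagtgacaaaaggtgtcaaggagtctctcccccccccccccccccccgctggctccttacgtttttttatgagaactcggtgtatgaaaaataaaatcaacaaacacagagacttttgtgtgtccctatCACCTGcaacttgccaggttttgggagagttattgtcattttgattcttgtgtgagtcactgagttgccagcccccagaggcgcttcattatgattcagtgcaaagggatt
Stmn3: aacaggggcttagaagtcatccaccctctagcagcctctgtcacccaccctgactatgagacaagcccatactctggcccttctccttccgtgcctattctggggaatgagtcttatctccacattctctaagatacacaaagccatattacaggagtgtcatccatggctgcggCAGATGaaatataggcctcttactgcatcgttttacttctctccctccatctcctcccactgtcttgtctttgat

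E-box letters were thus found at 2 places in the first Dclk1 window and at 1 place in each of the other windows shown, and 66.2% of 32851 windows of the same length in the table hold a match. The GC box letters GGGCGG, searched on both strands, were absent from these 3 windows and from both Dcx windows. They were found 5 times in the Map2 window, 2 times in that of Tubb3 and 1 time in that of Map1b, and in 32.7% of all windows. The share of G and C was 52.4% and 46.8% in the Dclk1 windows and 48.8% in that of Stmn3, and it was 81.2% for Map2, 68.0% for Tubb3 and 66.4% for Map1b, against a median of 52.4% over all windows. No letters here show that a factor binds.

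Several of these genes also varied with the replicate number. Arrays numbered 1 were the lowest of both groups for 5 of the 10 genes, Tubb3, Map2, Mapt, Map1b and Stmn4, which held for 19.3% of all genes. They were the highest of both groups for 2 of the 10 genes, Stmn1 and Stmn3, which is near the 18.6% of all genes. In Stmn3 the arrays of a group hardly differed (SD 0.0061 for the shRNA and 0.012 for the scramble construct). The range over the 6 arrays was 1.43 on the log2 scale for Stmn4, 1.26 for Mapt, 0.97 for Dclk1 and 0.91 for Map2, against 0.18 for Stmn3 and 0.26 for Map1b. In contrast to Map2 and Mapt, Dclk1 was highest of the shRNA arrays in replicate 1.

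Between arrays of the same number, shRNA minus scramble was below 0 in all 3 replicates for Tubb3, Map2, Mapt and Stmn4. The share of all genes for which this holds was not counted. For Stmn2, Stmn3 and Dclk1 the sign was fixed, since their groups do not overlap. The differences were -0.17, -0.38 and -0.51 for Stmn2, -0.17, -0.15 and -0.15 for Stmn3, and -0.096, -0.64 and -0.97 for Dclk1. Stmn1 was above 0 each time, with 0.13, 0.033 and 0.080, and Map1b and Dcx differed in sign between replicates. Without scramble replicate 1, the median difference of the 10 genes was -0.32, and the groups parted for Map2, Mapt and Stmn4 as well. That held for 6 of the 10 genes, and with that array left out it held for 40.0% of all genes in either direction, against 16.8% with all arrays. Without shRNA replicate 1 the median difference shrank to -0.13, and the groups parted for 4 of the 10 genes, against 28.9% of all genes.

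**Figure D3:**
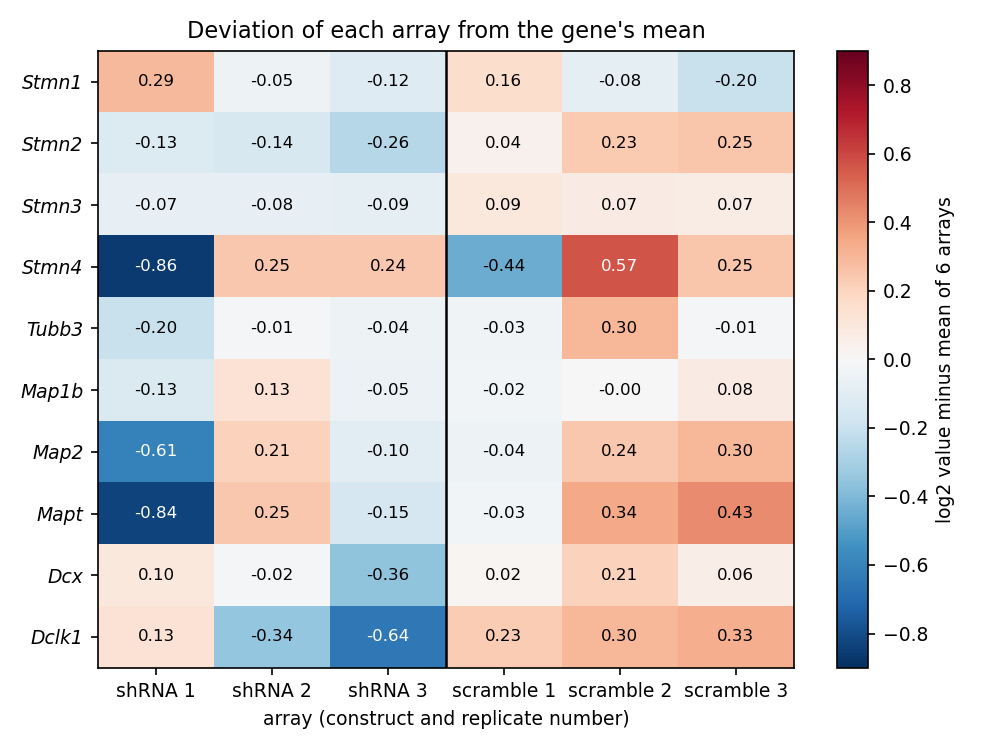
Deviation of each array from the gene's mean over the 6 arrays, on the log2 scale, with shRNA arrays left of the line and scramble arrays right of it. Red is above and blue below the mean. Arrays numbered 1 are low for Stmn4 (-0.86 in the shRNA and -0.44 in the scramble array) and high for Stmn1 (0.29 in the shRNA and 0.16 in the scramble array), and Dclk1 is lowest in shRNA replicate 3 (-0.64).

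The likeness of profiles was measured as the root mean square distance between values over the 6 arrays, each gene centred on its own mean. Map2 and Mapt were 0.12 apart, and Map1b and Stmn3, both of small range, 0.10 apart. The farthest pair was Dclk1 and Stmn4, at 0.66. Among 19937 other genes, the 5 nearest to Dclk1 were Acbd5 at 0.044, Efr3a at 0.049, Dnajb14 at 0.058, Supt7l at 0.077 and Rab8b at 0.082. Acbd5, a tail-anchored peroxisomal protein, was at 9.92, 9.49 and 9.15 in the shRNA arrays and at 10.05, 10.19 and 10.08 in the scramble arrays. It shared with Dclk1 a tight scramble group and the lowest value in shRNA replicate 3. These genes were ranked over only 6 arrays, and no relation between them is implied.

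The tubulin isotypes other than Tubb3 were divided in direction. Of 18 listed, 15 were measured, 8 lower and 7 higher on average with the shRNA, and their median log2 difference was -0.045. At an unadjusted p under 0.05, 2 were lower and 2 higher, against 5.46% lower and 6.22% higher of all genes. After adjustment in limma 0 passed (lowest adjusted p = 0.383). The lower ones were the beta-tubulins of the brain Tubb2a and Tubb2b. Tubb2a was at 10.99, 11.30 and 11.08 in the shRNA arrays and at 11.45, 11.84 and 11.47 in the scramble arrays, and differed by -0.46 on the log2 scale with groups that did not overlap. Tubb2b differed by -0.35, with overlapping groups. Tubb6, a class V beta-tubulin of many tissues, was at 12.33, 12.59 and 12.59 in the shRNA arrays and at 12.15, 12.02 and 11.75 in the scramble arrays, and differed by 0.53 on the log2 scale in the opposite direction. The other higher gene, Tube1, was at 9.98, 9.95 and 10.07 in the shRNA arrays and at 9.95, 9.18 and 8.69 in the scramble arrays. It differed by 0.73 with overlapping groups, and was named after its value was seen. Tubb5, the common beta-tubulin of dividing cells, differed by 0.12 and Tuba1a, the main alpha-tubulin of neurons, by -0.11 on the log2 scale. Near-identical tubulin genes may share probe sequence, so their values may not be independent of one another.

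Among 36 measured of 37 listed microtubule-associated and severing proteins, 20 averaged lower and 16 higher, and the median log2 difference was -0.011. At an unadjusted p under 0.05, 3 were lower and 0 higher. In either direction this was 8.33% of the list, against 11.7% of all genes. The 3 lower genes were Katnal1, a katanin-like severing protein, at -0.67, Map6, which protects microtubules from cold, at -0.41, and Dpysl3, a collapsin response mediator protein, at -0.27. Map6 was at 10.92, 11.22 and 10.96 in the shRNA arrays and at 11.25, 11.56 and 11.55 in the scramble arrays. Map1a, the relative of Map1b in mature neurons, differed by -0.25, Map4, found outside neurons, by 0.020 and Dclk2, the relative of Dclk1, by 0.060, and none of these reached an unadjusted p under 0.05.

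Tubulin folding cofactors and enzymes that act on tubulin were evenly split. Of 22 measured, 11 had a lower and 11 a higher mean, and 3 in each direction had an unadjusted p under 0.05. Of all genes, 5.46% were lower and 6.22% higher at that p. Atat1, which acetylates alpha-tubulin, lay between 9.87 and 10.11 with the shRNA and between 10.23 and 10.59 with the scramble construct, and differed by -0.45. Ttl, which returns tyrosine to the tail of alpha-tubulin, was higher by 0.25, and Ttll5, a polyglutamylase, by 0.63. For all 3 enzymes the groups did not overlap, which naming by the lowest unadjusted p favours. Over the list, the groups parted for 4 lower and 5 higher of 22 genes, against 7.63% lower and 9.13% higher of all genes.

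In the lists of neuronal motors and of kinases that act on neuronal microtubule proteins, the genes with an unadjusted p under 0.05 were lower, unlike the mitotic kinesins and kinases above. Of 28 measured kinesins, dynein and dynactin genes, 21 had a lower mean, and 5 were lower and 0 higher at an unadjusted p under 0.05, with a median log2 difference of -0.063. Kif5a, a neuronal kinesin heavy chain of axonal transport, was at 10.07, 10.35 and 10.25 in the shRNA arrays and at 10.64, 10.71 and 10.86 in the scramble arrays, and differed by -0.51 on the log2 scale. Kif5c, another neuronal heavy chain, differed by -0.31 and Kif3c by -0.76. In all 3 kinesins the groups did not overlap, which naming by the lowest unadjusted p favours. Over the list, the groups parted for 7 lower and 1 higher of 28 genes, against 7.63% lower and 9.13% higher of all genes. Kif5b, the heavy chain of most tissues, differed by -0.045 with an unadjusted p of 0.711 from limma, and was named after its value was seen. Of 23 measured kinases and phosphatase subunits that act on these proteins, 16 had a lower mean, and 4 were lower and 0 higher at an unadjusted p under 0.05. Cdk5, which phosphorylates tau and Dcx, was at 10.54, 10.92 and 10.94 in the shRNA arrays and at 10.98, 11.32 and 11.34 in the scramble arrays, and differed by -0.41 on the log2 scale. The scaffolds of JNK signalling Mapk8ip2 and Mapk8ip3 differed by -0.53 and -0.29. Of 21 plus-end tracking proteins 9 had a lower and 12 a higher mean, and 1, Slain1, was higher by 0.38 at an unadjusted p under 0.05. Set beside each of these lists, 5.46% of all genes were lower and 6.22% higher at an unadjusted p under 0.05. After adjustment over all probes, 0 genes of any of these lists passed in limma.

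**Figure D4:**
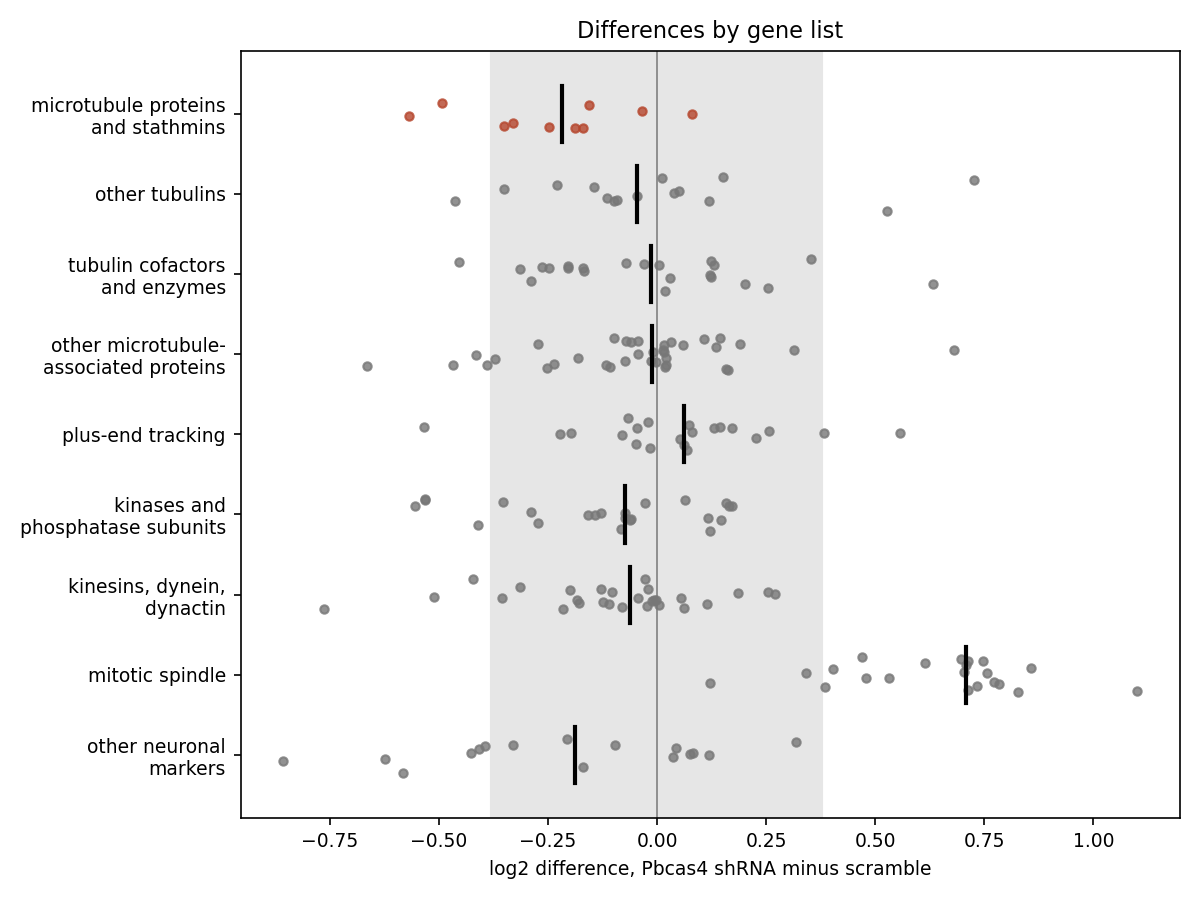
Log2 difference of each measured gene, Pbcas4 shRNA minus scramble, by gene list. Points are genes, black bars are the list medians and the grey band holds the central 90% of all 19938 genes (-0.38 to 0.38). The median of the 10 microtubule and stathmin genes is -0.22, near that of the other neuronal markers (-0.19), and that of the mitotic spindle list is 0.71. The sympathoadrenal markers, which are not drawn, also have a median of -0.22.

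Neuronal markers outside the microtubule genes were set beside these results. All 16 were measured, 10 averaged lower with the shRNA, and 6 were lower and 0 higher at an unadjusted p under 0.05, with a median log2 difference of -0.19. Of all genes, 5.46% were lower and 6.22% higher at that p. Averaged over these markers, the log2 level was 10.81, 10.96 and 10.86 with the shRNA, against 10.96, 11.16 and 11.14 with the scramble construct, where shRNA replicate 2 and scramble replicate 1 nearly met. Averaged over the 10 microtubule and stathmin genes, it was 11.44, 11.69 and 11.52 with the shRNA, against 11.67, 11.89 and 11.83 with the scramble construct, and there shRNA replicate 2 lay above scramble replicate 1. The part of these markers in the values of the 10 genes was not tested. Syp, synaptophysin of synaptic vesicles, differed by -0.86, Uchl1, a neuronal deubiquitinase, by -0.62 and Ncam1, an adhesion molecule, by -0.43. Of the 16 markers, 6 averaged higher, by 0.037 for Nefm to 0.32 for the heavy neurofilament gene Nefh, and 0 of the 16 passed after adjustment (lowest adjusted p = 0.344 from limma). The light and medium neurofilament genes Nefl and Nefm and the mature neuronal marker Rbfox3 lay, like Dcx, below the median probe of the arrays. These genes and Nefh were named after their values were seen. All 12 measured sympathoadrenal markers of neuroblastoma were above it. Of these, 9 averaged lower with the shRNA, and their median log2 difference was -0.22. At an unadjusted p under 0.05, 3 were lower, against 5.46% of all genes. These 3 were the noradrenaline enzyme Dbh at -1.34, the first enzyme of catecholamine synthesis Th at -1.08 and the granin Chgb at -1.01. The groups overlapped for Dbh. The other 3 sympathoadrenal markers averaged higher, among them Ddc, another enzyme of catecholamine synthesis, by 0.34, which was named after its value was seen. Markers of other cell types were mostly below the median probe, with 9 of 12 glial, 5 of 10 fibroblast, 8 of 10 macrophage and 7 of 10 epithelial genes. Averaged over each list, the glial markers were at 7.66 to 7.87 with the shRNA and 7.75 to 7.89 with the scramble construct. The fibroblast markers were at 7.37 to 7.44 with the shRNA and 7.07 to 7.51 with the scramble construct. The macrophage markers were at 6.81 to 6.88 with the shRNA and 6.79 to 6.86 with the scramble construct, and the epithelial markers at 7.39 to 7.53 with the shRNA and 7.39 to 7.54 with the scramble construct. At an unadjusted p under 0.05, 1 gene of these 4 lists differed, Pdgfra, a receptor of mesenchymal cells, which was higher by 0.55 in the shRNA arrays.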

How the data were processed

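RNA of N2A cells transfected with the Pbcas4 shRNA or the scramble construct was measured on 3 arrays each, and the methods describe separate transfections. The deposited values are log2 expression, 1 per probe, which the authors had already normalized between arrays; how the background was corrected and the arrays normalized is not given in the sources used here. Of 35556 probes, 21789 carried 1 gene symbol in the platform annotation. No further normalization was applied.

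Differences were tested two-sided in limma 3.58.1 (R 4.3.3) over all 35556 probes, with Benjamini-Hochberg adjustment. The threshold of 0.5 that the methods set on the variance of conditions was read here as a log2 difference. The fit was tried on simulated data with noise drawn independently for each array. Such noise has no pattern shared by replicate number, so the fit was not tested under that pattern. The genes and lists were chosen with earlier results of these data known. From each further list, up to 3 genes with the lowest unadjusted p under 0.05 were named, besides 6 relatives of the 10 genes and, for Dclk1, the 5 nearest profiles. The titles number the arrays. After group means were removed, same-numbered arrays correlated at 0.291, 0.137 and 0.103 across probes. These are all over 0.1, which was taken as pairing, although shRNA replicate 2 correlated more with scramble replicate 3 (0.199) than with scramble replicate 2, and a fit with the replicate block was added. Other alternatives changed the normalization, the variance model, the probe filter and the arrays included. Promoter windows came from RefSeq (GRCm38.p6). The precision is limited by the number of arrays.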

Additional observations from a re-analysis of the deposited data

How the results depend on the processing

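With 1 array left out, the lowest adjusted p of the 10 genes lay between 0.0998 and 0.866 in limma. Under the alternatives run, 0 of the 10 genes met the criterion used here, except with array weights. There 1 gene, Dclk1, met it (log2 difference -0.86, adjusted p = 0.0209 from limma). The estimation of these weights stopped before it converged, and gave most weight to shRNA replicate 3 (5.32) and scramble replicate 2 (2.39), the other arrays having 0.353 to 0.875. The same fit called 1320 of all genes. It gave 7 of the 10 genes an unadjusted p under 0.05, against 32.6% of all genes. In that fit Stmn2 (adjusted p = 0.0185) and Dcx (adjusted p = 0.0494) also had an adjusted p under 0.05, with differences of -0.46 for Stmn2 and -0.45 for Dcx, short of the size threshold. With equal weights and no size criterion the count was 0. With the replicate block, 3 genes had an unadjusted p under 0.05 (Mapt, Dclk1 and Stmn2), against 14.6% of all genes, and the adjusted call changed for 0 genes. With 1 array left out, 1 to 3 genes had an unadjusted p under 0.05, against 5.33% to 19.4% of all genes. Without scramble replicate 1 it was 2 of the 10 genes, against 19.4% of all genes. Only Stmn2 was left without shRNA replicate 3, and likewise without scramble replicate 2 or 3. The groups did not overlap for 3 to 7 genes with 1 array left out (7 without shRNA replicate 2, against 29.7% of all genes, and 6 without scramble replicate 1) and for 7 without both arrays numbered 1, against 55.5% of all genes; fewer arrays leave less room for overlap. The median difference of the 10 genes was between -0.32 and -0.13. Directions turned for 3 genes without shRNA replicate 1. With 1 array left out, Map1b lay between -0.11 and 0.021, Stmn1 between -0.044 and 0.18 and Stmn4 between -0.53 and 0.12. Without both arrays numbered 1, Map1b was at 0.0012. When all probes of a gene were averaged, Stmn3 no longer parted the groups. A filter on dim probes removed Dcx, which then had no value.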
